A study of Homo sapiens with 4 samples.

Results

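Notch signalling genes were followed in bulk RNAseq data of melanoma spheroids, dissected into a core and an invasion zone. The 10 genes were the receptors NOTCH1, NOTCH2 and NOTCH3, the ligands JAG1, JAG2 and DLL1, and the target genes HES1, HES4, HEY1 and HEYL. They were listed by name, with earlier results of these data known. All 10 were found as rows among the 56304 genes of the count table. The cells were MV3, an established human line of highly metastatic melanoma, carrying the nuclear label H2B-GFP in every sample. Spheroids of 50000 cells were embedded in collagen I and cultured without treatment until day 2, when the core was removed with a punch of 1 mm and the remaining invasion zone with a punch of 3 mm. Each zone had 2 libraries, labelled replicate 1 and replicate 2. All values come from a single cell line, and a vertical punch can keep cells that invade above or below the core within the core sample.

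Notch receptors are single-pass membrane proteins that are activated by ligands of the Jagged and Delta-like families on neighbouring cells. Ligand binding leads to cleavage by ADAM proteases and then by the gamma-secretase complex, which frees the intracellular domain. That domain enters the nucleus, binds the DNA-binding protein RBPJ together with a Mastermind coactivator, and raises transcription of the repressors of the HES and HEY families. The pathway is active in neural crest cells and melanocyte stem cells, the lineage of melanoma.

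HES1, HES4 and HEYL are shown as target genes that hold the RBPJ motif, and JAG2 is shown because it differed between the zones like HES1 but lacks the motif in this window. Each sequence is the 250 bases before the gene's start in RefSeq (assembly GRCh38.p14), 5′ to 3′ on the gene's strand. Capitals mark the core RBPJ motif TGGGAA or its reverse complement TTCCCA, searched on both strands. The HES1 window is chr3:194135898-194136147 on the plus strand. The HES4 window is chr1:1000098-1000347, the HEYL window chr1:39639644-39639893 and the JAG2 window chr14:105168777-105169026, all on the minus strand.
HES1: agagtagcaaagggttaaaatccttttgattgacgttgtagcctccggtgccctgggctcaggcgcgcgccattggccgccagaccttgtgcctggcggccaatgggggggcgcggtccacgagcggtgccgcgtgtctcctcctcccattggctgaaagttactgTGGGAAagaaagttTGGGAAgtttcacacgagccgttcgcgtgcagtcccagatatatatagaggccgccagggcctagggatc
HES4: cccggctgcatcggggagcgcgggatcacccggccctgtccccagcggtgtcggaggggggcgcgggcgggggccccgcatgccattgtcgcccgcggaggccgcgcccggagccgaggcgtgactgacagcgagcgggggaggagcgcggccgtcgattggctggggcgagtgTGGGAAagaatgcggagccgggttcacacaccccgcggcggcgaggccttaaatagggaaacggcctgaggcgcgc
HEYL: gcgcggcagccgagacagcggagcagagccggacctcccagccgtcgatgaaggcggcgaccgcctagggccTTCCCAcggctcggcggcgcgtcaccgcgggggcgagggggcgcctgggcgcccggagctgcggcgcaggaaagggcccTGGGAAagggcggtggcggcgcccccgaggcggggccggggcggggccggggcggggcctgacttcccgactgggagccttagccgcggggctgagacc
JAG2: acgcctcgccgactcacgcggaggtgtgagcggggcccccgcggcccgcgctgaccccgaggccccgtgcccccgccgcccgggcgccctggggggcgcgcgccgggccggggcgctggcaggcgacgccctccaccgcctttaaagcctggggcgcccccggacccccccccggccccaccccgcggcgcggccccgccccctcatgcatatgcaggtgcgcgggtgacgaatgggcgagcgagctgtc

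HES1 held 2 matches, which began 84 and 70 bases before the start and lay on the same strand. HES4 held 1 match, at 76 bases. HEYL held 2 matches on opposite strands, at 178 and 99 bases. JAG2, JAG1, NOTCH1, NOTCH2 and NOTCH3 held none. The motif occurs in 20.8% of all 35116 promoter windows of this length and 2 or more matches occur in 2.90% of them, so a match alone is common. RefSeq windows were matched for 8 of the 10 genes, and DLL1 and HEY1 are the other two.

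The libraries held 36363358 (core replicate 1), 14983135 (core replicate 2), 37591782 (invasion zone replicate 1) and 11789243 (invasion zone replicate 2) counts. Levels are given as CPM, counts scaled to a common library total, after scaling by TMM factors. A gene at 0 could still be present at up to 3 counts, or 0.0825, 0.200, 0.0798 and 0.254 CPM of the unscaled library total in the same order, and this limit covers counting error only. The test was the quasi-likelihood test of edgeR on the zones, with Benjamini-Hochberg adjustment over 15529 genes, with calls made where the adjusted p was under 0.05 and the change at least 2-fold. A second fit adds the replicate number as a block. It is given for other genes of the pathway, and where it changed a call or whether an interval held a 2-fold difference. Nothing in the labels says that the libraries of a zone came from separate cultures, so the p-values measure the spread between these libraries, which may be technical. In bulk RNA, fewer cells that express a gene and less RNA of it per cell cannot be told apart.

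By mean level per length of transcript, HES4 was the most abundant of the 10 genes and HEYL was not detected. The mean over the 4 libraries was 40.3 CPM per kb for HES4 (range 26.7 to 53.9) and 16.8 for HES1 (5.92 to 27.8). JAG1 followed at 10.8 CPM per kb (8.60 to 11.9), NOTCH2 at 6.26 (5.25 to 6.87) and NOTCH1 at 2.94 (2.75 to 3.05). These levels place HES4 above 85.7% of the tested genes, JAG1 above 60.6% and NOTCH1 above 36.5%. Lower in the order, JAG2 had 1.24 CPM per kb (0.379 to 2.19), HEY1 0.826 (0.737 to 1.03), NOTCH3 0.122 (0.0872 to 0.153) and DLL1 0.0339 (0.00705 to 0.0886). The ranges of neighbours overlapped between HES4 and HES1, HES1 and JAG1, JAG2 and HEY1, and NOTCH3 and DLL1. These ranges pool both zones, so an overlap does not show equal levels. The order of the means did not hold in every library. In core replicate 1, HES1 (27.8 CPM per kb) lay above HES4 (26.7). In invasion zone replicate 2, JAG1 (8.60) lay above HES1 (5.92). The leading receptor was NOTCH2, followed by NOTCH1, and the leading ligand was JAG1.

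**Figure D1:**
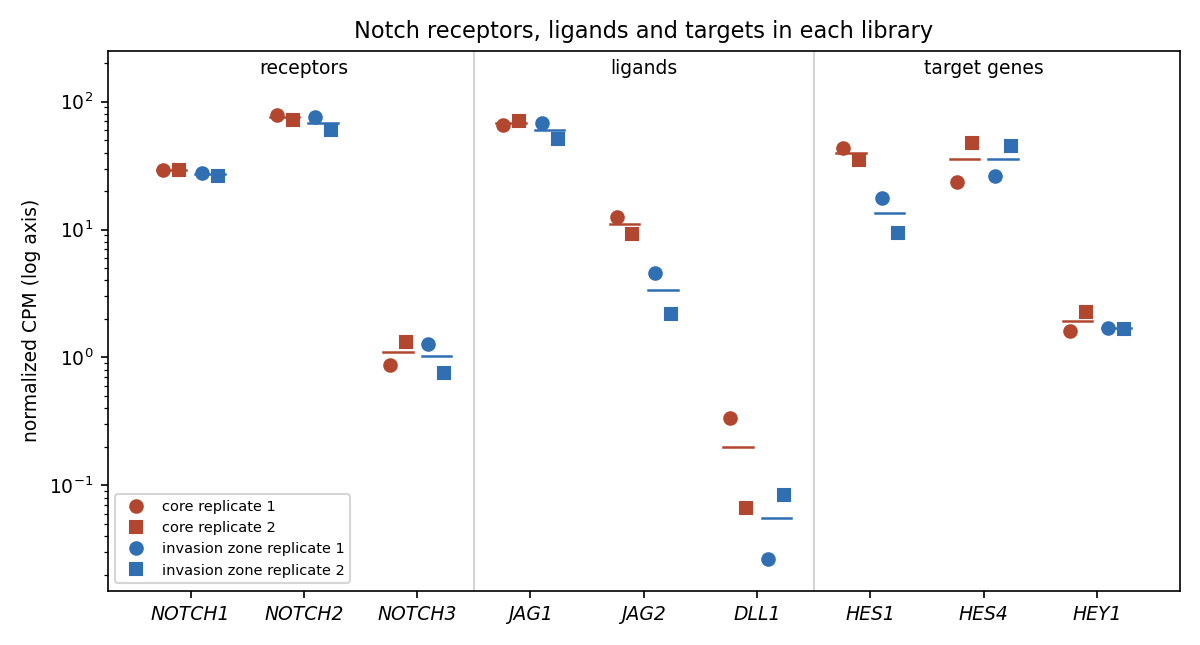
Normalized CPM (log axis) of 9 of the 10 genes in each library, with receptors, ligands and target genes set apart by vertical lines. Circles are replicate 1, squares replicate 2, and short horizontal lines the zone means. HEYL had 0 counts in every library and is not drawn. For JAG2 and HES1 both invasion zone points lie under both core points, and for HES4 the replicates differ more than the zones.

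Between the zones, the 2 larger differences were in a ligand and a target gene: JAG2 and HES1 were lower in the invasion zone, while the 95% intervals of the other 6 tested genes included 0. Of the 10 genes, 8 passed the count filter and DLL1 and HEYL did not. By edgeR without a replicate term, 0 of the 8 were called in either direction, as were 0% of all tested genes higher and 0% lower. Before adjustment, with p under 0.05 and the 2-fold limit, 2 of the 8 were lower (JAG2 and HES1) and 0 higher, against 6.41% of all tested genes lower and 3.19% higher. With the replicate block, 2 were called lower, again JAG2 and HES1, and 0 higher, against 7.40% lower and 3.79% higher. DESeq2 without a block called the same 2 genes lower and 0 higher, against 3.53% lower and 2.28% higher. It gave no adjusted p for NOTCH3, which could not be called there.

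NOTCH1 (ENSG00000148400, hg38 chr9:136494433-136546048, minus strand), a receptor with broad roles in development, had 29.2 and 29.0 CPM in the core (replicates 1 and 2) and 27.9 and 26.3 CPM in the invasion zone. Both invasion zone libraries lay just under both core libraries. The log2 fold change was -0.10 ± 0.16 (SE, n = 2 per zone; edgeR adjusted p = 0.724), with a 95% interval of -0.49 to 0.29. A 2-fold difference thus lay outside the interval.

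NOTCH2 (ENSG00000134250, chr1:119911553-120100779, minus strand), a receptor also used by melanocyte precursors, had 78.5 and 71.9 CPM in the core and 75.4 and 60.0 CPM in the invasion zone. The zones overlapped, and the lowest value was that of invasion zone replicate 2. Between zones the log2 fold change was -0.15 ± 0.17 (SE; edgeR adjusted p = 0.617), with an interval of -0.57 to 0.27.

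NOTCH3 (ENSG00000074181, chr19:15159038-15200995, minus strand), a receptor best known from vascular smooth muscle and pericytes, was near the detection limit. It had 31 and 20 counts in the core and 48 and 9 counts in the invasion zone, or 0.865 and 1.32 CPM against 1.28 and 0.757 CPM. The zones overlapped and the replicates went opposite ways. Its log2 fold change was 0.11 ± 0.47 (SE; edgeR adjusted p = 0.905), with an interval of -1.05 to 1.28, which held a 2-fold difference in either direction. With the replicate block the interval was -0.78 to 1.11, which held a 2-fold higher but not a 2-fold lower level. Both intervals rest on few counts.

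JAG1 (ENSG00000101384, chr20:10637684-10673999, minus strand), the more abundant Jagged ligand, had 65.6 and 70.9 CPM in the core and 68.3 and 51.1 CPM in the invasion zone. The zones overlapped: within replicate 1 the log2 ratio of the zones was 0.06 (95% counting interval -0.02 to 0.14), and within replicate 2 it was -0.47 (-0.62 to -0.33). Over both replicates it was -0.19 ± 0.18 (SE; edgeR adjusted p = 0.565), with an interval of -0.65 to 0.27. Its exons share 306 bases with a gene on the opposite strand, and the strand setting of the counting was not given in the sources used here.

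JAG2 (ENSG00000184916, chr14:105140982-105168824, minus strand), the other Jagged ligand, had 453 and 140 counts in the core but 170 and 26 in the invasion zone. This was 12.6 and 9.27 CPM in the core, a mean of 11.0 ± 2.38 (SD, n = 2), and 4.53 and 2.19 CPM in the invasion zone, a mean of 3.36 ± 1.66. Both invasion zone libraries lay under both core libraries. JAG2 was 2.79-fold lower in the invasion zone within replicate 1 and 4.24-fold lower within replicate 2. Fitted over both replicates, the log2 fold change was -1.61 ± 0.38 (SE), with an interval of -2.56 to -0.67. It did not pass the test without a replicate term (edgeR adjusted p = 0.115). With the replicate block it was -1.65 ± 0.22 and passed (edgeR adjusted p = 0.000732), as it did in DESeq2 (adjusted p = 0.00578). Only 3.15% of the tested genes had a lower log2 fold change.

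Some limits touch the JAG2 value. Of its 6396 exonic bases, 469 are shared with a second gene on the same strand, whose row had 0 counts in every library. How reads on the shared bases were counted is not given in the sources used here. A row of 0 therefore does not show that JAG2 lost no reads there. The call depended on single libraries: the adjusted p of edgeR without a block was 0.225 with core replicate 1 left out and 0.0800 with invasion zone replicate 2 left out, but 0.00633 when core replicate 2 was left out and 0.0102 when invasion zone replicate 1 was. Over these 4 fits the log2 fold change ran from -2.34 to -1.29, where the remaining library of a zone is taken to vary like those of the other zone.

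DLL1 (ENSG00000198719, chr6:170282206-170306565, minus strand), a Delta-like ligand, was counted 12 and 1 times in the core and 1 and 1 times in the invasion zone. Nearly all of these counts were in core replicate 1, and the gene was not tested. Summed over libraries, the core held 13 counts and the invasion zone 2, a ratio of 6.31 after allowing for depth (95% counting interval 1.43 to 57.6). This ratio rests on core replicate 1, since replicate 2 had 1 count in each zone. Of its exons, 370 bases are shared with FAM120B on the opposite strand.

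HES1 (ENSG00000114315, chr3:194136148-194138732, plus strand), the classical Notch target and a transcriptional repressor, had 1569 and 529 counts in the core and 664 and 111 counts in the invasion zone. This was 43.8 and 35.0 CPM in the core, a mean of 39.4 ± 6.18 (SD, n = 2), and 17.7 and 9.33 CPM in the invasion zone, a mean of 13.5 ± 5.92. Both invasion zone libraries lay under both core libraries. HES1 was 2.47-fold lower in the invasion zone within replicate 1 and 3.76-fold lower within replicate 2. Fitted over both replicates, the log2 fold change was -1.51 ± 0.32 (SE), with an interval of -2.31 to -0.70. It did not pass the test without a replicate term (edgeR adjusted p = 0.112). With the replicate block it was -1.54 ± 0.16 and passed (edgeR adjusted p = 0.000263), as it did in DESeq2 (adjusted p = 0.000750). Among the tested genes, 3.64% had a lower log2 fold change. Leaving out 1 library at a time without a block gave adjusted p-values of 0.102 (core replicate 1), 0.000987 (core replicate 2), 0.00188 (invasion zone replicate 1) and 0.0282 (invasion zone replicate 2), and log2 fold changes from -2.08 to -1.16.

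HES4 (ENSG00000188290, chr1:998962-1000172, minus strand), a relative of HES1 with the same kind of repressor domain, did not separate the zones. It had 23.7 and 47.7 CPM in the core and 26.3 and 45.0 CPM in the invasion zone. The zones overlapped, while replicate 2 was 2.02-fold above replicate 1 in the core and 1.71-fold above it in the invasion zone. The log2 fold change lay near 0 with an SE of 0.41 and an interval of -1.02 to 1.01 (edgeR adjusted p = 0.995). With the replicate block it was 0.04 ± 0.11, with an interval of -0.22 to 0.29, and a 2-fold difference lay outside that interval.

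HEY1 (ENSG00000164683, chr8:79762371-79767857, minus strand), a repressor of the hairy-related HEY family, was low in all libraries, with 1.62 and 2.25 CPM in the core and 1.71 and 1.68 CPM in the invasion zone. The zones overlapped. The log2 fold change was -0.13 ± 0.37 (SE; edgeR adjusted p = 0.851), with an interval of -1.05 to 0.78. A 2-fold lower level lay within that interval, but outside the interval of -0.80 to 0.62 with the replicate block. HEYL (ENSG00000163909, chr1:39623435-39639643, minus strand), of the same family, had 0 counts in all 4 libraries, which allows at most the limits of 0.0798 to 0.254 CPM given above.

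**Figure D2:**
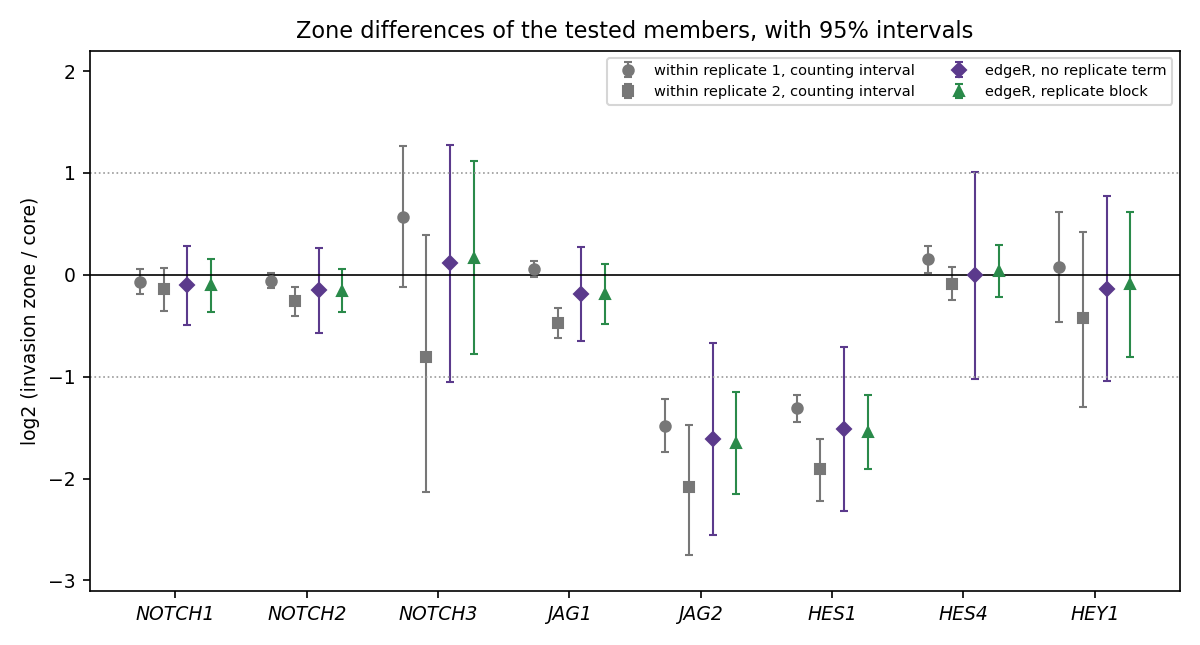
Log2 ratio of invasion zone to core for the 8 tested genes: within each replicate (grey, with 95% intervals for counting error only) and fitted by edgeR without a replicate term (diamonds) and with a replicate block (triangles), both with 95% intervals. Dotted lines mark a 2-fold difference; JAG2 (-1.61) and HES1 (-1.51) lie beyond it on the low side and the other genes lie near 0.

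Ratios within a library restate these values without any scaling between libraries. For every 100 counts of HES4 there were 185 and 73.5 counts of HES1 in the core and 67.3 and 20.7 in the invasion zone. The zones did not overlap, and the log2 change was -1.46 in replicate 1 and -1.82 in replicate 2. For every 100 counts of JAG1 there were 19.3 and 13.1 counts of JAG2 in the core and 6.63 and 4.28 in the invasion zone, again without overlap, with log2 changes of -1.54 and -1.61. The pairs were chosen after their values were seen, so the ratios are a description and no further support.

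Within both replicates, 4 of the 8 tested genes were lower in the invasion zone (NOTCH1, NOTCH2, JAG2 and HES1), 0 were higher and 4 went opposite ways, against 40.9% of all tested genes lower and 39.8% higher. Both invasion zone libraries lay under both core libraries for 3 of the 8 (NOTCH1, JAG2 and HES1) and above them for 0, against 30.3% of all tested genes under and 28.1% above. The shares lower or under were near the background, while the shares higher or above, 0 of 8, were below it. No test of these shares was made, and counts over 8 genes say little about the genes as a group. Their median log2 fold change was -0.14, against -0.01 over all tested genes. At any fold change with the replicate block, 2 of the 8 had an adjusted p under 0.05 in edgeR, JAG2 and HES1, both lower, against 20.1% of all tested genes lower and 20.0% higher.

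**Figure D3:**
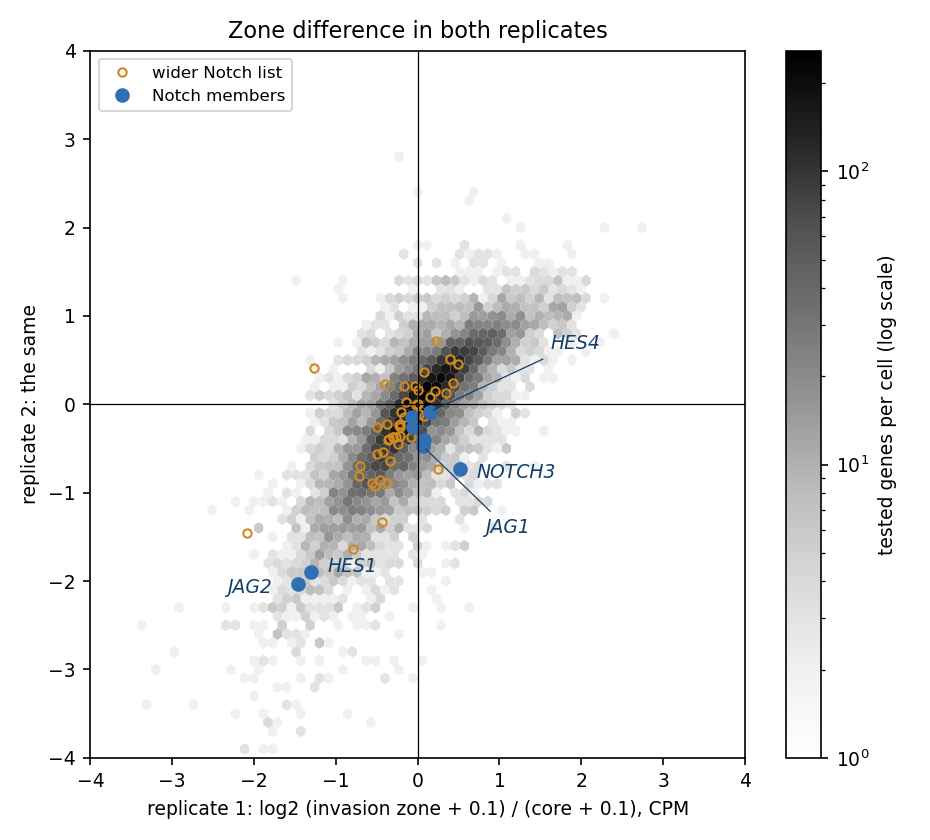
Log2 ratio of invasion zone to core in replicate 1 (x axis) and replicate 2 (y axis), with 0.1 CPM added to each value. Grey cells count all tested genes, of which 52 lie outside the axes; open circles are tested genes of the wider Notch list and filled circles the 8 tested genes described here. JAG2 and HES1 lie at the lower left, more than 2-fold lower in both replicates, while NOTCH3 and JAG1 lie where the replicates go opposite ways.

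Other genes of the pathway were read from a list of 56 genes in 9 roles, of which 47 were tested and 2 had no count in any library. By edgeR without a replicate term 0 of them were called, with a smallest adjusted p of 0.112; at an unadjusted p under 0.05 and 2-fold, 2 of 47 were lower (DTX4 and BHLHE41) and 0 higher, fewer than the 6.41% and 3.19% over all tested genes would give. The replicate block called the same 2 lower and 0 higher, a share again under the 7.40% and 3.79% of all tested genes. DTX4, a Deltex ubiquitin ligase that acts on Notch receptors, had 52 and 20 counts in the core and 10 and 5 in the invasion zone, without overlap, and a log2 fold change with the block of -2.19 ± 0.46 (SE; edgeR adjusted p = 0.00645). BHLHE41, a repressor related to the HES family, had 5.36 and 6.76 CPM in the core and 3.06 and 2.10 CPM in the invasion zone, also without overlap, and a log2 fold change of -1.08 ± 0.27 with the block (edgeR adjusted p = 0.0130).

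At any fold change with the replicate block, 22 of the 47 had an adjusted p under 0.05 and were lower in the invasion zone, and 2 were higher, against 20.1% lower and 20.0% higher over all tested genes. These counts depended on the test: DESeq2 with the block gave 12 lower and 1 higher, against 12.5% and 14.1% of all tested genes. DESeq2 without it gave 3 and 0, and the shares of all tested genes were not counted there. In edgeR without it the counts were 0 and 0, as over all tested genes. DESeq2 gave no adjusted p for 5 of the 47, with or without the block, so those genes could not be counted. Its shares are over all 15529 tested genes, including those without an adjusted p. The median log2 fold change of the 47 was -0.23 without the block. Within both replicates 29 were lower, 10 higher and 8 mixed, against 40.9% and 39.8% of all tested genes. No test of the list as a whole was made.

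By role, the lower genes at any fold with the block are counted in edgeR and then in DESeq2, against the shares of 20.1% and 12.5% over all tested genes, and roles were not tested against each other. Among genes that cleave receptors, 6 of 9 were lower in edgeR and 4 in DESeq2, and the proprotein convertase gene FURIN and NCSTN were lower in both. NCSTN, the nicastrin subunit of gamma-secretase and the most abundant of them per length, had 295 and 226 CPM in the core and 180 and 129 CPM in the invasion zone. Its log2 fold change with the block was -0.76 ± 0.07 (SE; edgeR adjusted p = 0.000238), under the 2-fold limit. In the nuclear complex, 6 of 8 genes were lower in edgeR (RBPJ, MAML2, MAML3, EP300, CREBBP and KAT2B) and 2 in DESeq2 (MAML2 and EP300). SNW1, its most abundant member and a coactivator, did not pass, with a log2 fold change of 0.08 ± 0.08 (edgeR adjusted p = 0.448).

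Among the ligases that ubiquitinate ligands, MIB1 and MIB2 of 3 tested genes were lower in both tools. MIB2, the most abundant of these, had 122 and 111 CPM in the core and 74.6 and 68.6 CPM in the invasion zone, with a log2 fold change of -0.70 ± 0.08 with the block (edgeR adjusted p = 0.000407). Of the 7 tested genes of receptor turnover, NUMB, NUMBL, DTX3 and DTX4 were lower in edgeR and DTX3 alone in DESeq2, which gave no adjusted p for DTX4. NUMB, an endocytic inhibitor of Notch, had a log2 fold change of -0.30 ± 0.08 (adjusted p = 0.0162 in edgeR and 0.0563 in DESeq2).

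Of 9 corepressors, HDAC1 and TLE4 were lower in edgeR and TLE4 in DESeq2. HDAC1, a histone deacetylase and the most abundant gene of the list per length, had a log2 fold change of -0.23 ± 0.07 with the block (adjusted p = 0.0300 in edgeR and 0.117 in DESeq2). Of the 4 tested genes that glycosylate receptors, RFNG was lower in both tools and POGLUT1 higher in edgeR alone, and the most abundant, POFUT1, which adds O-fucose, had 0.18 ± 0.07 (edgeR adjusted p = 0.0848). The further receptor NOTCH4 had 1.42 and 0.861 CPM in the core and 0.533 and 1.18 CPM in the invasion zone, which overlapped. Neither tested ligand passed, and DLK2, an atypical ligand without the usual receptor-binding domain, had 14.4 and 16.8 CPM in the core and 12.8 and 19.4 CPM in the invasion zone.

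The list held 8 genes under the role of other targets, and whether Notch acts on any of them in these cells was not tested. Of the 8, 4 passed the count filter, and within both replicates 1 was lower and 3 were higher. HES6 had 2.60 and 3.38 CPM in the core and 3.33 and 3.70 CPM in the invasion zone. HES7 had 1.84 and 3.84 CPM against 1.95 and 4.96 CPM. Both were higher in both replicates, but their zones overlapped and neither passed (edgeR adjusted p with the block 0.413 and 0.556). BHLHE41 was lower, whereas CCND1, the cyclin D1 gene and a target of many pathways, rose from 333 and 368 CPM in the core to 468 and 505 CPM in the invasion zone (log2 fold change 0.47 ± 0.07 with the block, edgeR adjusted p = 0.00127). The other 4 did not pass the count filter: HES5 had no count, HES2 had 2, 0, 2 and 0 counts (core replicates 1 and 2, then invasion zone replicates 1 and 2), HEY2 had 0, 1, 2 and 4, and NRARP had 4, 1, 0 and 2. Their zone differences were not detectable at this depth.

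**Figure D4:**
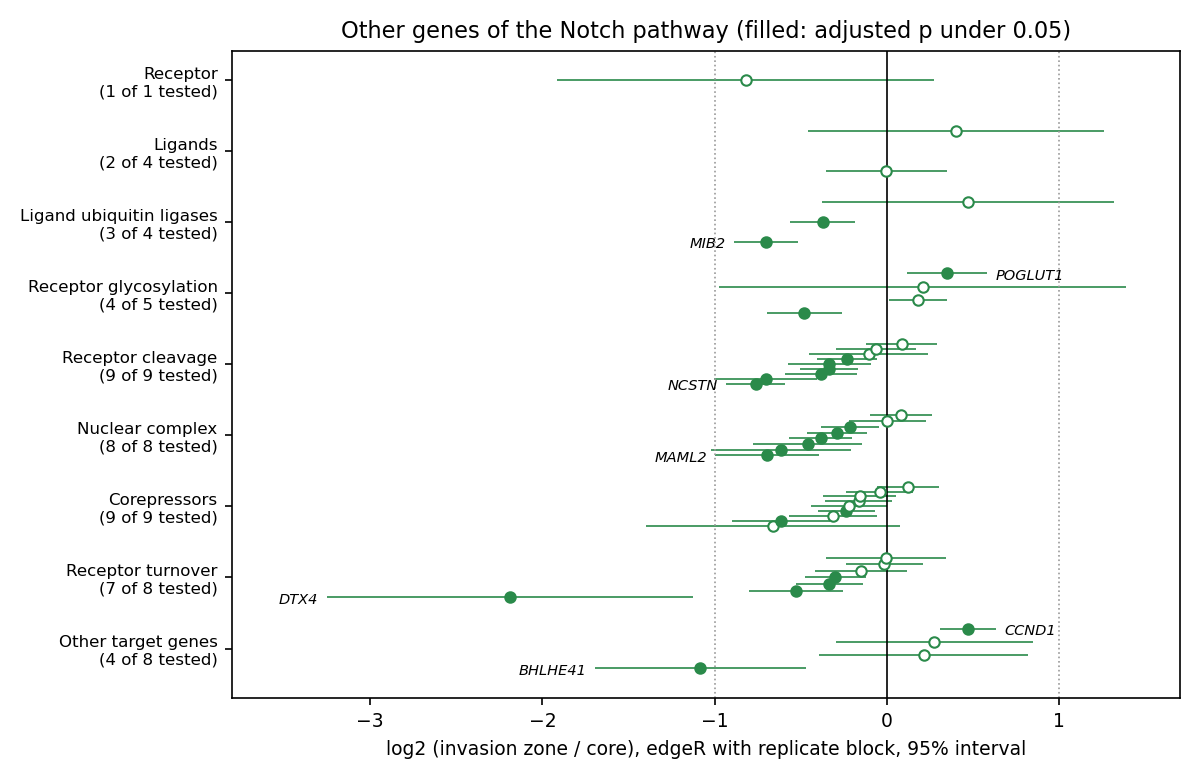
Log2 ratio of invasion zone to core with the replicate block (edgeR, lines are 95% intervals) for the 47 tested genes of the wider list, by role; filled points have an adjusted p under 0.05 and dotted lines mark 2-fold. The cleavage and nuclear roles each show 6 filled points below 0, while DTX4 and BHLHE41 are the points beyond 2-fold.

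Markers of cell types were checked beside these values. In a list of 10 genes set for the neural crest and melanocyte lineage, SOX10 and TYR had no count in any library, whereas SOX9 had 123 to 163 CPM. The receptor gene AXL, also on that list, had 632 and 628 CPM in the core and 1222 and 1120 CPM in the invasion zone. The summed level of these 10 genes was 759 and 795 CPM in the core and 1385 and 1255 CPM in the invasion zone. AXL made up most of this sum and of its rise, and no other gene of the list was higher in both replicates. The rise is thus one of AXL and not of the list. For SOX9, MITF, PMEL and MLANA the replicates went opposite ways, and S100B, DCT and NGFR were at or near 0. Of 5 endothelial genes, PECAM1 moved with JAG2 and HES1, with 18.1 and 7.42 CPM in the core and 5.22 and 0.925 CPM in the invasion zone, which did not overlap. The other endothelial genes were at or near 0, with KDR at 0 in all libraries, and the summed level of the 5 was 18.4 and 7.62 CPM in the core and 5.76 and 0.925 CPM in the invasion zone. Leukocyte genes summed to 0.504 to 1.26 CPM with CD3E at 0, and epithelial genes to 0.0841 to 0.307 CPM. Mitochondrial transcripts were 1.72% and 1.13% of the core libraries and 1.43% and 1.06% of the invasion zone libraries. The part of these in the JAG2 and HES1 values was not tested.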

How the data were processed

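RNA from 2 core and 2 invasion zone samples was amplified with the SMARTer Ultra low input kit. The authors removed ribosomal reads with Bowtie, aligned to hg38 with STAR, ran HTSeq on uniquely mapped reads and deposited raw counts per gene, with no normalization. Versions, annotation release and strand setting: not given in the sources used here.

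Groups and replicate numbers came from the labels. Of 56306 rows, 2 placeholder rows without a gene were left out. Genes were filtered with filterByExpr (10 counts, 15 in total), scaled by TMM (factors 0.985 to 1.01) and tested with edgeR 4.0.16 in R 4.3.3. DESeq2 1.42.0 and limma 3.58.1 (voom) were alternatives, with RLE and upper-quartile scaling, other count filters, thinning, a replicate block and each library left out. The procedure was tested on simulated data. Within-replicate intervals are exact Poisson ratios (conditional binomial, 95%). Same-numbered libraries deviated together (correlation 0.58 over genes). The numbers were taken as pairs because the protocol removes the invasion zone matching each core and library numbers are consecutive, although no source states a shared spheroid, batch or day. Libraries of a zone differed beyond sampling noise (chi-square per degree of freedom 33.8 and 31.9).

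The members and lists were chosen with earlier results of these data known. Named genes were the 10 members and, from the wider list, genes called with or without the block and the most abundant gene per length in each role, plus marker genes. Other genes are named as members of a count. HES6 and HES7 are named as the remaining tested genes listed as other targets, and HES2, HES5, HEY2 and NRARP as the untested ones. Positions and lengths came from GENCODE 44 (98.1% of identifiers) and promoters from RefSeq GRCh38.p14.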

Additional observations from a re-analysis of the deposited data

How the results depend on the processing

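Depth limits NOTCH3, HEY1 and DLL1, which had few counts, and 2 libraries per zone limit every p-value. Without a replicate term edgeR called 0 genes higher and 0 lower. That stayed so with RLE or upper-quartile scaling, a minimum of 10 counts in every library, voom, the legacy edgeR fit, thinning to the smallest library and no fold minimum. The counts became 81 higher and 191 lower with no count filter, 588 and 1149 with the replicate block, 354 and 548 in DESeq2, 427 and 731 in DESeq2 with the block, 575 and 1088 in voom with the block, and 495 and 995 by unadjusted p. Leaving out 1 library at a time gave 8 to 693 higher (8 without core replicate 1, 693 without core replicate 2) and 108 to 970 lower (970 without invasion zone replicate 1). The cause was not tested. Of the Notch members, 0 were called lower without a block. The count became 2 (JAG2 and HES1) with the replicate block, in DESeq2, in DESeq2 with the block, in voom with the block and by unadjusted p, and 0 to 2 with a library left out. Over 15 alternatives JAG2 had adjusted p-values of 3.9e-05 to 0.225 and passed in 6, and HES1 had 2.2e-10 to 0.130 and passed in 7. In both, every log2 fold change was negative. In the wider list the lower calls became 2 with the replicate block, 1 in DESeq2 with the block, 2 in voom with the block, 2 by unadjusted p and 0 to 3 with a library left out (3 without invasion zone replicate 1). At any fold change its 22 lower and 2 higher genes with the replicate block became 0 and 0 with no replicate block. DESeq2 gave 3 and 0 with no replicate block and 12 and 1 with the block, and voom with the block gave 23 and 2. These alternatives were chosen after seeing the data. For DESeq2 with no replicate block and for voom with the block, the shares of all tested genes were not counted. Differences near 0 changed sign. NOTCH3 had log2 fold changes of -0.050 in DESeq2, -0.066 in DESeq2 with the block, -0.033 in the legacy fit and -0.24 after thinning, and -0.44 to 0.35 with a library left out. HES4 had 0.0092 with RLE scaling, 0.037 with the replicate block, 0.011 in DESeq2, 0.046 in DESeq2 with the block, 0.029 in voom, 0.049 in voom with the block and 0.020 after thinning, and -0.43 to 0.59 with a library left out. With a library left out, NOTCH2 ran from -0.33 to 0.0020, JAG1 from -0.42 to 0.0015 and HEY1 from -0.40 to 0.071. The counts of members lower or higher in both replicates stayed at 4 and 0 with RLE, upper-quartile and no scaling, and became 3 and 0 after thinning, where NOTCH2 was no longer lower in replicate 1. The block changed no other call among the members.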
